A study of Mus musculus with 21 samples.

Results

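Atrial chamber marker genes are genes that mouse heart muscle expresses mainly in the atria. The 6 genes examined were sarcolipin (Sln), the atrial essential and regulatory myosin light chains (Myl4 and Myl7), myosin binding protein H-like (Mybphl), bone morphogenetic protein 10 (Bmp10) and Dickkopf 3 (Dkk3). They were chosen by name and make up 6 of the 56691 genes in the deposited table. Their levels were read in 21 libraries of mouse heart RNA, to describe how much atrial signal each sample held and whether it differed between groups. Control mice (5 libraries) carried no tumor and received normal saline (NS), and DOX mice (5 libraries) carried no tumor and received doxorubicin. Tb mice (6 libraries) and Tb-DOX mice (5 libraries) carried subcutaneous tumors of 4T1, a mouse breast cancer cell line, and received NS and doxorubicin, respectively. Doxorubicin, an anthracycline, was injected intraperitoneally at 5 mg/kg once a week for 3 weeks. The strain, age and sex of the mice, and the part of the heart taken for RNA, are not given in the sources used here. In the labels 4T1 cells are given as the source of the RNA. The methods describe heart tissue, and the cardiomyocyte gene Myh6 lay between 2495 and 4538 FPKM in all 21. FPKM are counts scaled to the exon length of a gene and to the library total, and all levels below are on this scale unless another is named.

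The atria and ventricles of the adult mouse heart use different versions of several contractile proteins. Each myosin head carries an essential and a regulatory light chain, and these are Myl4 and Myl7 in atrial muscle and Myl3 and Myl2 in ventricular muscle. Sln is a small membrane protein that inhibits the SERCA calcium pump, in the way that phospholamban (Pln) does in the ventricle. Mybphl is a sarcomere protein of the myosin binding protein family, Bmp10 is a secreted ligand that the right atrium releases and that signals through the endothelial receptor Acvrl1, and Dkk3 is a secreted glycoprotein of the Dickkopf family. In RNA from a piece of heart, fewer atrial cells and less RNA per atrial cell cannot be told apart.

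Promoter sequence was shown for the members whose levels moved together most closely across libraries and for which the RefSeq table (GRCm38.p6) held an entry, which it did for 4 of 6 members. Each line gives the 250 bases before the annotated start, on the strand of the gene. Capitals mark matches on either strand to 1 of 7 motifs: the GATA core GATAA, the E-box CANNTG, the CArG box of serum response factor, the TATA box TATAAA, the T-box motif AGGTGT, the nuclear receptor motif AGGTCA and the MEF2 core. The Myl7 window lies at chr11:5898783-5899032 on the minus strand, the Myl4 window at chr11:104550413-104550662 on the plus strand and the Mybphl window at chr3:108364661-108364910 on the plus strand.
Myl7: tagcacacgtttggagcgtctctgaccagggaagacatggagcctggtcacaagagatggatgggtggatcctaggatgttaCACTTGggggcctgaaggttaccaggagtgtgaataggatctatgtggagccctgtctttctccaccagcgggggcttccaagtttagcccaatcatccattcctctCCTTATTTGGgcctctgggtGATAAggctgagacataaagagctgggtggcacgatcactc
Myl4: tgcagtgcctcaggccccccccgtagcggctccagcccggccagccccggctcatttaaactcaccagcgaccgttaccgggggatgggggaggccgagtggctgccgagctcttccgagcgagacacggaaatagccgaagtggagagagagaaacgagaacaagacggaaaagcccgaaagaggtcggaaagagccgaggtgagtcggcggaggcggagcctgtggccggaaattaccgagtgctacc
Mybphl: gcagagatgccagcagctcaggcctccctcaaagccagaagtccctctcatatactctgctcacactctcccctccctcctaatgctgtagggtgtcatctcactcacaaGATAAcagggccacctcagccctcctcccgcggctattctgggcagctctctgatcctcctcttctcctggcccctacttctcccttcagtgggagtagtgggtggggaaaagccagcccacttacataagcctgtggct
The Myl7 window held a CArG box at bases −61 to −52, a GATAA match at −41 to −37 and an E-box at −168 to −163. The Mybphl window shared with it only the GATAA match, at −140 to −136, and the Myl4 window held none of the 7 motifs. Of 32851 promoter windows of this length, 22.6% held GATAA, 66.2% an E-box and 1.47% a CArG box. The other shares were 12.4% for TATAAA, 11.8% for AGGTGT, 14.0% for AGGTCA and 3.20% for the MEF2 core. None of the matches overlapped another. The Bmp10 window held GATAA at −218 to −214 and at −32 to −28, and that of the ventricular light chain gene Myl3 held the same 3 motifs as that of Myl7, with the CArG box at −85 to −76.

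In all 21 libraries the ventricular light chains far exceeded the atrial ones. Myl7 was the most abundant member, at 39.4 on average over all libraries, against 3549 for Myl2. Within a library, Myl7 amounted to 0% to 2.80% of Myl2, with a median of 0.877%, and Myl4 to 0.0198% to 0.902% of Myl3, with a median of 0.272%. Myl4 averaged 6.96, Sln 5.56, Dkk3 5.19, Mybphl 2.21 and Bmp10 0.0319. Bmp10 was at the limit of detection: 9 libraries held 0 counts, 4 held more than 3, and the highest count was 14. Every gene of the ventricular list (Myl2, Myl3, Myh7, Irx3, Irx4, Irx5, Hey2 and Kcnip2) passed the filter on low values, a mean of at least 0.5, and so did 5 of 6 members. Bmp10 was the member left out.

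The genes lie on separate chromosomes apart from Myl4 and Myl7, which share chromosome 11. On GRCm39, the build named in the submitters' processing notes, Sln (ENSMUSG00000042045) spans chr9:53757448-53761844 on the plus strand and Myl4 (ENSMUSG00000061086) chr11:104441489-104486579 on the plus strand. Myl7 (ENSMUSG00000020469) spans chr11:5846637-5848782 on the minus strand, and Mybphl (ENSMUSG00000068745) chr3:108272227-108287373 on the plus strand. Bmp10 (ENSMUSG00000030046) spans chr6:87405976-87414659 on the plus strand and Dkk3 (ENSMUSG00000030772) chr7:111715224-111758264 on the minus strand. Counts were summed over the exons of each gene, which cover 590 bases in Myl7 and 4637 in Myl4. Whether the counting used strand is not given in the sources used here.

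Total counts per library ranged from 13521200 to 18601445, and log2 counts scaled to the library total (CPM) of replicates correlated at 0.914 to 0.984. Control replicate 3 and Tb replicate 5 also stood apart over all genes: per degree of freedom, the chi-square of their counts against each replicate was 93.7 to 107 and 81.1 to 111, against 6.07 to 10.4 among the other Control libraries and 7.41 to 72.3 among the other Tb libraries. Of the lists of marker genes of other tissues, skeletal muscle genes summed to 1.63 to 10.3 FPKM, lung epithelial genes to 0.06 to 1.63, epicardial and mesothelial genes to 0.93 to 3.28 and intracardiac neuron genes to 0.41 to 3.14. Thymus genes summed to 0.12 to 9.82, apart from 66.7 in DOX replicate 4, all of it from Cd3e, which T cells express. Fat genes summed to 13.5 to 20.4, led by Cidea at 16.2 on average. The other fat genes (Adipoq, Plin1, Cfd, Lep, Ucp1 and Cidec) each reached at most 0.72 in any library. Genes of the sinus node summed to 4.27 to 7.86, led by Tbx3 at 2.63. The most abundant gene was Tnnt3 (1.43 on average) in skeletal muscle, Ager (0.441) in lung, Wt1 (1.25) in epicardium and Dbh (1.19) in neurons. Few genes of these lists were abundant enough to be tested in edgeR. They were 5 of 9 for skeletal muscle, 0 of 6 for lung, 1 of 6 for epicardium and 1 of 7 for neurons. For thymus, fat and sinus node they were 1 of 6, 1 of 7 and 3 of 8. In DOX against Control, Cd3e and Mylpf of skeletal muscle rose and Dbh and the sinus node channel Hcn4 fell (adjusted p under 0.05). No other gene tested on these lists passed there, where 36.2% of all genes did. In Tb-DOX against Tb none of those tested passed, against 4.72% of all genes.

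Myl7, the regulatory light chain of atrial myosin, varied more between replicates than between groups. In Control its level was 28.9, 72.6, 12.3, 89.7 and 33.0 in replicates 1 to 5. In DOX it was 76.6, 45.2, 34.0, 74.5 and 0. In Tb it ran from 15.7 to 47.2 with a median of 22.0, and in Tb-DOX the levels were 6.77, 81.3, 25.6, 16.9 and 83.0. The 4 groups overlapped. Control replicates 2 and 4, DOX replicates 1 and 4 and Tb-DOX replicates 2 and 5 were the highest of their groups, and Control replicate 3, DOX replicate 5 and Tb-DOX replicate 1 the lowest. The order of the group means was Control (47.3 ± 32.4), DOX (46.1 ± 31.7), Tb-DOX (42.7 ± 36.6) and Tb (24.5 ± 11.5; SD, n = 5, 5, 5 and 6), and no neighbours in this order differed beyond their spread.

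For Sln, the SERCA inhibitor, and Myl4, the essential light chain, the same libraries of Control, DOX and Tb-DOX were the highest and the lowest of their groups as for Myl7. Sln was at 5.02, 9.61, 1.89, 14.3 and 4.33 in Control and at 11.6, 8.61, 4.31, 12.7 and 0.05 in DOX. It ran from 1.79 to 6.24 with a median of 3.32 in Tb, and was at 1.19, 8.93, 2.30, 1.33 and 8.18 in Tb-DOX. Control replicate 4 and DOX replicate 4 were the highest and DOX replicate 5 the lowest of the 21 libraries for this gene. Myl4 was at 6.90, 13.9, 4.95, 17.9 and 8.05 in Control and at 11.2, 6.91, 4.92, 10.6 and 0.54 in DOX. It ran from 2.55 to 11.1 with a median of 4.07 in Tb, and was at 1.45, 11.8, 4.24, 2.44 and 10.2 in Tb-DOX. Mean Sln was 7.46 ± 5.27 in DOX, 7.03 ± 4.93 in Control, 4.39 ± 3.84 in Tb-DOX and 3.71 ± 1.83 in Tb, and mean Myl4 was 10.3 ± 5.38 in Control, 6.84 ± 4.38 in DOX, 6.03 ± 4.70 in Tb-DOX and 5.03 ± 3.24 in Tb (SD). The SD exceeded the step between neighbouring means throughout both orders.

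For Mybphl, the sarcomere protein, the highest libraries of these 3 groups were again the same, and DOX replicate 5 was less far below the others. It was at 0.99, 4.18, 0.88, 4.35 and 2.42 in Control and at 4.09, 2.20, 2.10, 3.93 and 1.06 in DOX. It ran from 0.46 to 1.54 with a median of 1.32 in Tb, and was at 0.86, 3.91, 2.03, 0.46 and 6.13 in Tb-DOX. The mean was 2.68 ± 2.35 in Tb-DOX, 2.68 ± 1.30 in DOX, 2.56 ± 1.67 in Control and 1.15 ± 0.461 in Tb (SD), so that the 6 Tb libraries formed a low and narrow group inside the range of the others. Dkk3, the secreted Dickkopf protein, had the narrowest range of the 5 members tested, taken as a ratio. It was at 4.35, 5.58, 3.78, 5.55 and 4.26 in Control, and at 8.90, 6.02, 6.29, 8.98 and 1.36 in DOX. It ran from 3.44 to 7.55 with a median of 4.67 in Tb, and was at 1.71, 6.48, 5.48, 3.83 and 6.55 in Tb-DOX. In DOX, 4 libraries lay above every Control library and replicate 5 lay below all of them. Group means were 6.31 ± 3.10 in DOX, 4.99 ± 1.51 in Tb, 4.81 ± 2.05 in Tb-DOX and 4.70 ± 0.815 in Control (SD), again closer than their spread.

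**Figure D1:**
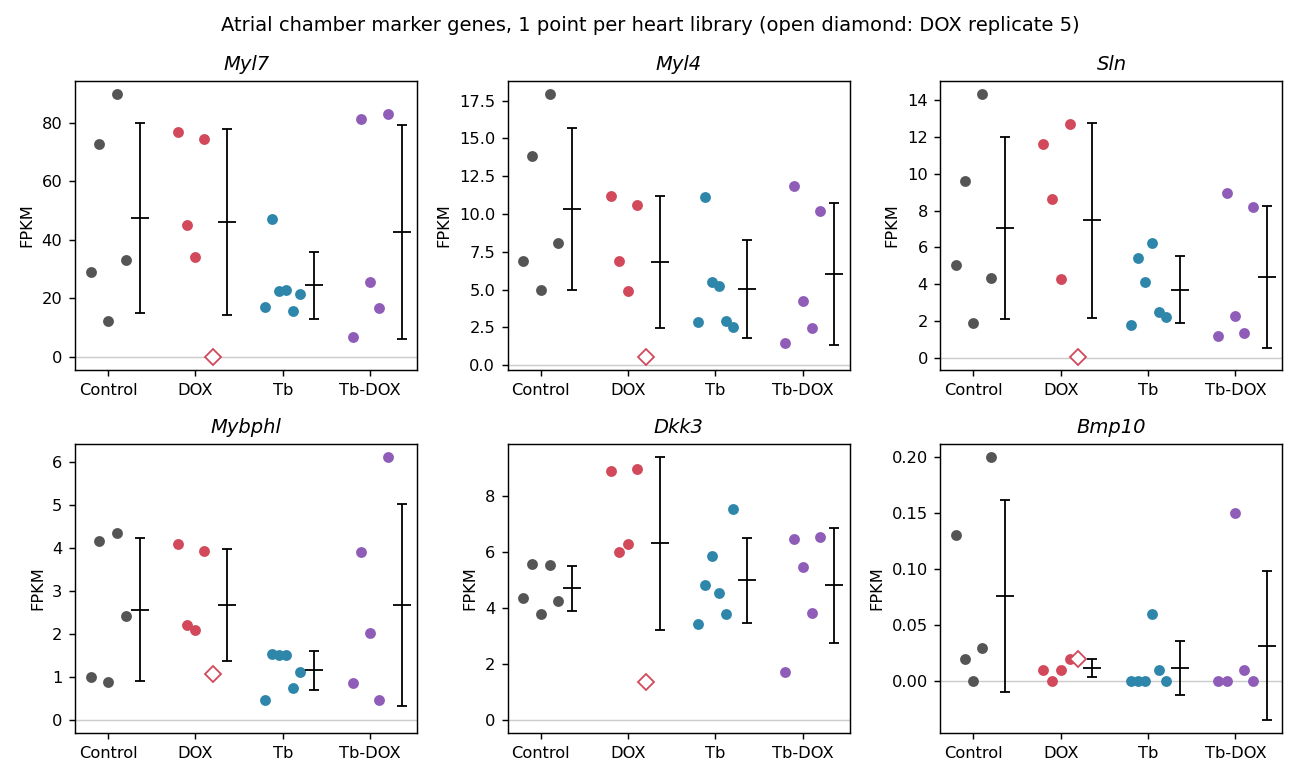
Level of each of the 6 atrial chamber marker genes in FPKM (vertical axis) in every library of the 4 groups. Each point is 1 library, the bar beside each group gives the mean and SD, and DOX replicate 5, with Myl7 at 0 and Sln at 0.05, is drawn as an open diamond.

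Bmp10, the atrial ligand, gave too few counts for a comparison of levels. Only Control replicates 1 and 5 (9 and 14 counts), Tb replicate 4 (5 counts) and Tb-DOX replicate 3 (9 counts) held more than 3 counts. The unadjusted p, from exact permutation of the group labels (two-sided, on log2(FPKM + 0.1)), was 0.183 for DOX against Control, 0.758 for Tb-DOX against Tb, 0.147 for Tb against Control and 0.992 for Tb-DOX against DOX. The smallest p possible is 0.00794 with 5 against 5 libraries and 0.00433 with 6 against 5. A difference in Bmp10 was not detectable at this depth.

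Whether doxorubicin changed the atrial genes was tested in mice without and with a tumor. No member passed in either state. In edgeR's quasi-likelihood test with Benjamini-Hochberg adjustment over 13990 genes, 0 of the 5 members tested had an adjusted p under 0.05 in DOX against Control, where 36.2% of all genes tested did. In Tb-DOX against Tb the count was also 0 of 5, against 4.72% of all genes. DESeq2 and limma on log2(FPKM + 0.1) called 0 of 5 as well in both states. At an unadjusted p under 0.05 edgeR listed 0 members in the first comparison and 1, Mybphl, in the second. The libraries of DOX and Control overlapped for all 5 members, while 25.3% of all genes showed no overlap, and those of Tb-DOX and Tb did likewise, against 4.95%. The median log2 fold change of the 5 members was 0.20 in DOX against Control and 0.28 in Tb-DOX against Tb, beside medians of 0.00 and −0.02 over all genes.

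The intervals were wide. In DOX against Control the log2 fold change of Myl7 was 0.09 (SE 0.733, 95% interval −1.43 to 1.61, adjusted p = 0.939 in edgeR). The value for Sln was 0.22 (SE 0.699, interval −1.23 to 1.67, adjusted p = 0.830) and for Myl4 −0.46 (SE 0.608, interval −1.72 to 0.80, adjusted p = 0.580). For Mybphl the value was 0.20 (SE 0.570, adjusted p = 0.812) and for Dkk3 0.56 (SE 0.363, adjusted p = 0.236). A change of 2-fold in either direction lay within the intervals of Sln and Myl7. The sign was not stable for Sln and Myl7: in limma on log2(FPKM + 0.1) their log2 fold changes were −0.57 and −1.29. Without Control replicate 3, which held the highest Myl2 (5007), Myl7 was at −0.16, Sln at −0.023 and Mybphl at −0.028 in edgeR. For Dkk3 a single library decided the call. Leaving out DOX replicate 5 gave a log2 fold change of 0.83 (SE 0.291, edgeR adjusted p = 0.0312), with 7.55 ± 1.61 in the 4 remaining DOX libraries (SD) and an unadjusted p of 0.0159 in the exact permutation test. The other 4 members stayed above 0.05 without it, in a fit that called 5125 of 13990 genes, so that 1 of 5 members is below the share over all genes.

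In tumor-bearing mice the log2 fold change with doxorubicin was 1.25 for Mybphl (SE 0.562, interval 0.08 to 2.42, unadjusted p = 0.0369 and adjusted p = 0.210 in edgeR), and 3 of 5 Tb-DOX libraries lay above the Tb mean. Myl7 gave 0.83 (SE 0.707, adjusted p = 0.552), Myl4 0.28 (SE 0.585, adjusted p = 0.834), Sln 0.26 (SE 0.687, adjusted p = 0.867) and Dkk3 −0.04 (SE 0.347, adjusted p = 0.966). In limma on log2(FPKM + 0.1) the sign of Sln turned (−0.11). In Tb-DOX the high values came from replicates 2 and 5 in all 5 members. Whether doxorubicin acted differently in the 2 states was tested as an interaction. None of the 5 members passed, with adjusted p from 0.395 (Mybphl, log2 difference 1.05) to 0.985 (Sln, 0.04), where 8.94% of all genes did, and 0 had an unadjusted p under 0.05.

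The effect of the tumor was read from Tb against Control and from Tb-DOX against DOX, which reuse the same libraries. In Tb against Control, Sln, Myl4, Myl7 and Mybphl had log2 fold changes of −0.98, −1.10, −1.02 and −1.21, and Dkk3 of 0.02. On log2(FPKM + 0.1), 5 of 6 Tb libraries lay below the Control mean for the first 3 genes and 6 of 6 for Mybphl. None passed edgeR's adjusted p, from 0.228 to 0.978, with 6.28% of all genes called, and 1 member, Mybphl, had an unadjusted p under 0.05 (0.0437). The exact permutation p were 0.221 for Sln, 0.0563 for Myl4, 0.195 for Myl7 and 0.108 for Mybphl. All 5 members overlapped between the groups, while 6.18% of all genes did not. In Tb-DOX against DOX the values were −0.94, −0.36, −0.28 and −0.16 for the same 4 genes and −0.58 for Dkk3, and 0 of 5 were called at an adjusted or unadjusted p under 0.05, against 17.5% of all genes at the adjusted one. In this comparison limma on log2(FPKM + 0.1) turned the sign of Myl7 (0.90). Again 0 of 5 were free of overlap, against 14.5% of all genes. Without DOX replicate 5 Dkk3 had a log2 fold change of −0.84 here (edgeR adjusted p = 0.0466), in a fit that called 2657 of 13990 genes, a share close to 1 in 5.

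**Figure D2:**
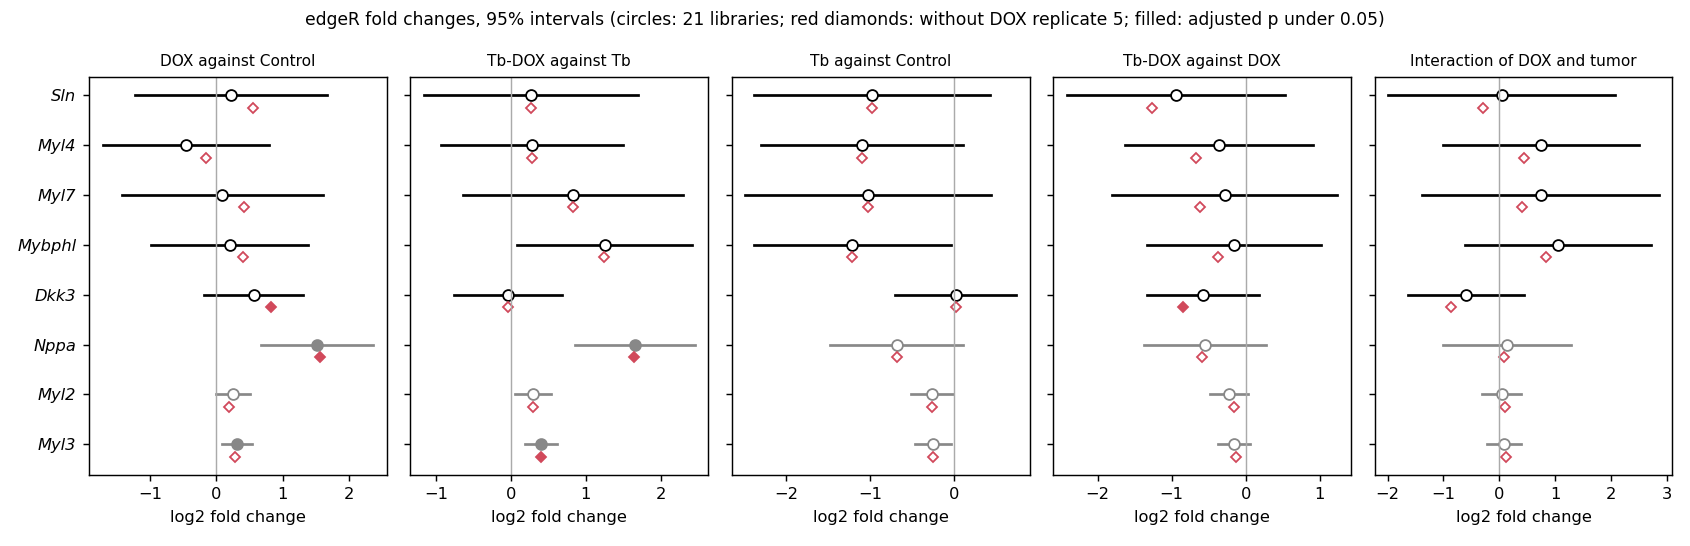
Log2 fold change (horizontal axis) of the 5 members tested and of Nppa, Myl2 and Myl3 in 5 edgeR comparisons. Circles with 95% intervals use all 21 libraries and red diamonds leave out DOX replicate 5. Filled symbols have an adjusted p under 0.05, which among members holds for Dkk3 without that library in DOX against Control and in Tb-DOX against DOX.

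A ratio of 2 genes in the same library does not depend on how libraries are scaled. Myl7 was 1.44% ± 1.05 of Myl2 in Control, 1.25% ± 0.838 in DOX, 0.789% ± 0.335 in Tb and 1.09% ± 0.886 in Tb-DOX (SD, n = 5, 5, 6 and 5). Myl4 was 0.493% ± 0.292 of Myl3 in Control, 0.279% ± 0.178 in DOX, 0.255% ± 0.146 in Tb and 0.232% ± 0.175 in Tb-DOX. Every group spanned a wide range of the atrial share, and the groups overlapped. In 6 two-sided exact permutation tests on the log2 ratio (0.1 added to each FPKM) the unadjusted p ran from 0.126, for Myl4 to Myl3 in Tb against Control, to 0.996, and the Benjamini-Hochberg adjusted p from 0.753 to 0.996. The log2 difference of Myl7 to Myl2 in DOX against Control was −1.41 with all libraries and 0.47 without DOX replicate 5. Myl7 was at 0 in that library, so the size of the first value depends on the 0.1 added.

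**Figure D3:**
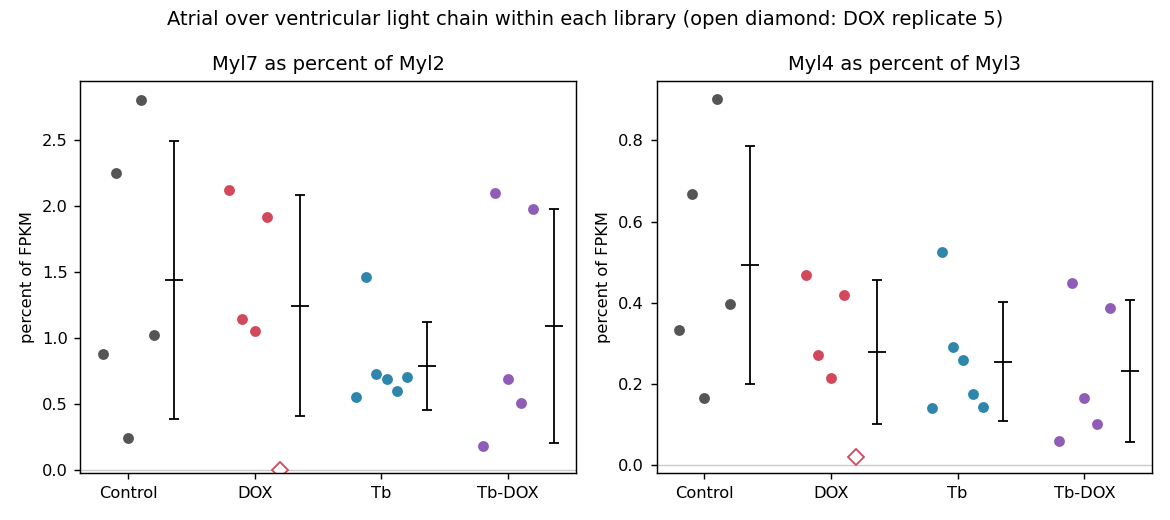
Atrial light chain as a percent of its ventricular counterpart, by FPKM, in each library. Points are libraries and bars give the mean and SD of each group. Myl7 reached 2.80% of Myl2 at most, and DOX replicate 5 (open diamond) is at 0% and 0.0198%.

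Sln, Myl4, Myl7 and Mybphl varied more within groups than most genes, and Dkk3 less so than these 4. The SD of log2 CPM within groups was 2.23 for Myl7, wider than in 99.98% of the genes tested, and 1.74 for Sln, 1.24 for Myl4, 1.06 for Mybphl and 0.718 for Dkk3. Those of Sln, Myl4, Mybphl and Dkk3 were wider than in 99.9%, 99.2%, 97.4% and 89.1% of genes. The median over all genes tested was 0.282. Myl2 and Myl3, the ventricular counterparts, had SDs of 0.193 and 0.157, and the median of 12 genes of all cardiomyocytes was 0.179. DOX replicate 5 supplied part of this: without it the SDs of Myl7 and Sln were 1.07 and 1.06, still wider than in 97.7% of genes for both. Those of Myl4, Mybphl and Dkk3 were then 0.947, 1.04 and 0.508, wider than in 95.4%, 97.3% and 79.4% of genes.

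The levels of the members varied together across libraries. Over the 21 libraries, on log2(FPKM + 0.1), Sln correlated with Myl4 at r = 0.94 (rho = 0.93) and with Myl7 at r = 0.94 (rho = 0.92), and Myl4 with Myl7 at r = 0.89 (rho = 0.90). The permutation p of these 6 values was 1e-05, the smallest that 100000 permutations can give (2.8e-05 after Benjamini-Hochberg adjustment over 14 relations). Mybphl correlated with Myl7 at r = 0.56 and rho = 0.90, and with Sln and Myl4 at r = 0.70 and 0.74 (rho = 0.84 and 0.82). Dkk3 correlated with the others at r from 0.62 to 0.83 and rho from 0.59 to 0.75. All 10 pairs had an adjusted permutation p under 0.05, the largest being 0.00335 for r and 0.00747 for rho. Without the pair of libraries farthest from the median of the first gene, r ran from 0.45 (Myl4 and Dkk3) to 0.91. Within the 6 Tb libraries alone, r was 0.84 for Sln and Myl4, 0.66 for Sln and Myl7, 0.90 for Myl4 and Myl7 and 0.04 for Myl4 and Dkk3. The libraries share the normalization to all counts and the same 4 groups, and the values centred on group means were 0.95, 0.96 and 0.92 for the first 3 pairs.

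Myl7 was also compared with the ventricular genes Myl2 and Myl3 and with Tnnt2, which all cardiomyocytes express, and none of these 3 correlations passed the permutation test. Myl7 correlated with Myl2 at r = −0.31 (rho = 0.04), with Myl3 at −0.20 (rho = 0.04) and with the troponin T gene Tnnt2 at −0.16 (rho = 0.01), with adjusted permutation p of at least 0.213. Without DOX replicate 5 the 3 values of r were 0.10, 0.10 and 0.02. Nppa, which encodes atrial natriuretic peptide and is abundant in atria, correlated with Myl7 at rho = 0.66 (adjusted permutation p = 0.00209) but at r = 0.17 (adjusted permutation p = 0.557). Leaving out DOX replicate 5 and Tb-DOX replicate 1, the libraries farthest from the Myl7 median, gave r = 0.79, and leaving out DOX replicate 5 alone gave r = 0.72, so the low r rests on that library.

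**Figure D4:**
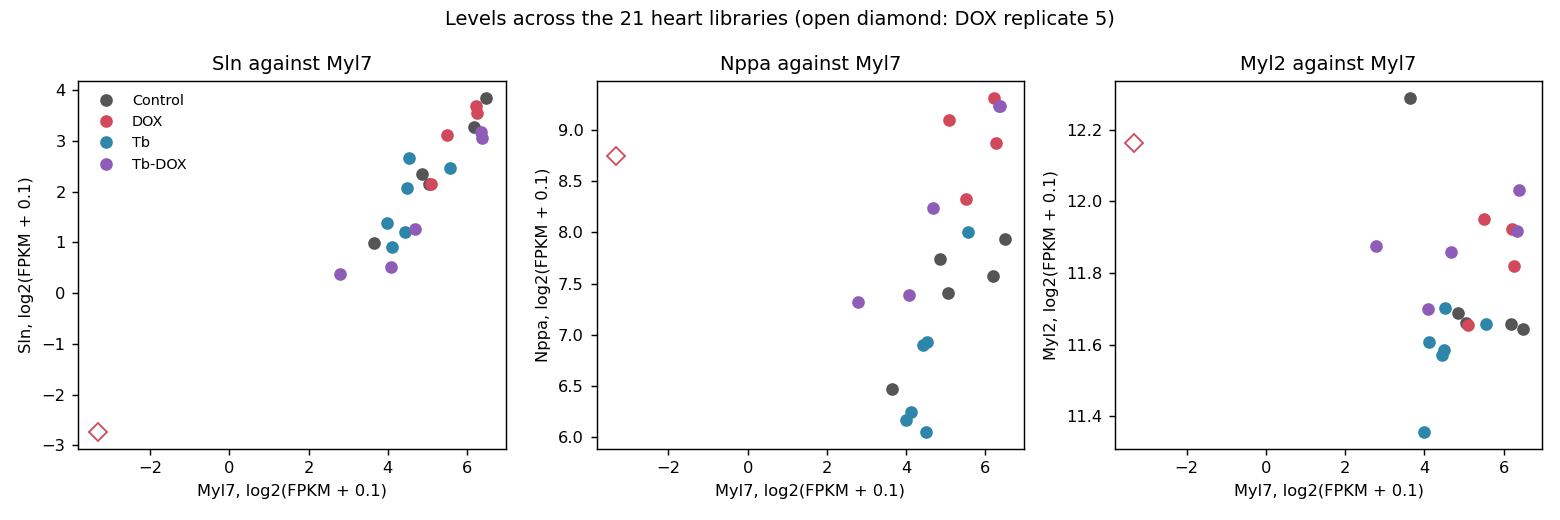
Sln, Nppa and Myl2 against Myl7 across the 21 libraries, all as log2(FPKM + 0.1) and colored by group. Sln follows Myl7 over the whole range (r = 0.94), Nppa does so apart from DOX replicate 5 (open diamond, r = 0.17 with it and 0.72 without it), and Myl2 does not (r = −0.31).

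DOX replicate 5 stood apart in the members. It held 0 counts of Myl7, 1 of Sln, 35 of Myl4, 19 of Mybphl, 1 of Bmp10 and 64 of Dkk3, in a total of 14008573 counts. A count of 0 allows up to 3 counts, or 0.363 FPKM, by counting error alone, so Myl7 was at least 93.7-fold below the lowest other DOX library (34.0). The genes tested were ordered by how far this library lay below the lowest of the 20 others. Myl7 was rank 1 and Sln rank 2 of 13990, Myl4 rank 17 and Dkk3 rank 474, while Mybphl, at 1.06, lay inside the range of the others. Of all genes tested, 791 lay below the lowest other library in this way and 697 lay above the highest. In the opposite order, above the highest other library, Irx5 was rank 1 and Irx3 rank 2. These encode Iroquois homeobox factors of the ventricle, at 3.24 (others 0.32 to 1.03) and 8.79 (others 1.33 to 4.06). Of the other ventricular genes, Irx4 (7.53, the lowest of the DOX libraries), Hey2 (2.44), Kcnip2 (38.1) and Myh7 (451) lay inside the range of the other libraries. Myl2 and Myl3 were at 4587 and 2732, inside the range of the others by FPKM (2621 to 5007 and 1674 to 3015), and 0.15 and 0.076 above the highest other library on the log2 scale of CPM scaled by TMM, the scaling of the edgeR fit. Nppa was at 428 in this library, inside the range of the 4 other DOX libraries, and the log2 CPM of the library correlated with those of the other DOX libraries at 0.954 to 0.970. The labels do not set this library apart from the other DOX libraries.

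Other genes that atria express more than ventricles were called in both directions. Of 15 listed, 10 passed the filter, and in DOX against Control 3 rose and 3 fell (edgeR, adjusted p under 0.05), where 36.2% of all genes tested were called. Nppa rose, from 182 ± 58.7 in Control to 480 ± 120 in DOX (SD, n = 5), a log2 fold change of 1.52 (SE 0.408, adjusted p = 0.00617). The level of Nppa was 468, 320, 548, 637 and 428 in DOX replicates 1 to 5 and 214, 191, 88.7, 244 and 170 in Control, with no overlap. Chrm2, the muscarinic receptor of the heart, rose by 0.80 (SE 0.151, adjusted p = 0.000382), and Pam, an amidating enzyme that is abundant in atrial granules, by 0.59 (SE 0.116, adjusted p = 0.000556). Kcnj3, a subunit of the acetylcholine-gated potassium channel, fell by 0.88 on the log2 scale, from 19.0 ± 2.30 to 9.40 ± 2.36 (SD; adjusted p = 0.00309). Kcna5, the channel of the ultrarapid potassium current, fell by 0.71 (adjusted p = 0.00187), and Gja5, the gap junction protein connexin 40, by 0.75 (adjusted p = 0.0264). The Gja5 call was lost in edgeR without Control replicate 5 (adjusted p = 0.0661) or without DOX replicate 2, 3 or 4 (0.0509, 0.0740 and 0.0576), with log2 fold changes of −0.65 to −0.73 in these 4 fits. Kcnj5, Nr2f2, Stard10 and Tbx5 did not pass, with log2 fold changes of −0.45, −0.17, −0.03 and 0.39. The median log2 fold change of the 10 genes was −0.10, beside 0.00 over all genes.

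In tumor-bearing mice, where 4.72% of all genes were called, Nppa was the 1 gene of these 10 that passed with doxorubicin, by 1.65 on the log2 scale (SE 0.386, edgeR adjusted p = 0.0179), from 119 ± 71.8 in Tb (n = 6) to 366 ± 222 in Tb-DOX (n = 5; SD). Its levels in Tb-DOX were 160, 602, 302, 168 and 601, highest in replicates 2 and 5, in which the members were also highest. Without Tb-DOX replicate 2 or 5 the edgeR adjusted p for Nppa was 0.0597 and 0.0655 (log2 fold change 1.40 and 1.38). The interaction of doxorubicin and tumor passed for Kcna5 (log2 difference 0.91, SE 0.222, edgeR adjusted p = 0.0202), whose level was 9.52 ± 2.01 in Control, 5.26 ± 1.09 in DOX, 7.65 ± 1.72 in Tb and 8.74 ± 0.840 in Tb-DOX (SD). For the other 9 genes and for the 8 ventricular genes it did not pass, and 8.94% of all genes did.

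Among the 8 ventricular genes 5 rose in DOX against Control and 0 fell, against 36.2% of all genes called in either direction. Myh7, the slow myosin heavy chain, rose by 2.43 on the log2 scale (SE 0.388, edgeR adjusted p = 8.82e-05), and Hey2, a ventricular transcription factor, by 0.73 (SE 0.165, adjusted p = 0.00172). Irx3, Irx5 and Myl3 had log2 fold changes of 0.99, 1.46 and 0.31 (adjusted p = 0.0255, 0.00825 and 0.0267). Without DOX replicate 5, in which Irx3 and Irx5 were highest, these were 0.50, 0.74 and 0.28 (edgeR adjusted p = 0.164, 0.0599 and 0.0581). The edgeR adjusted p of Myl3 also rose above 0.05 when Control replicate 1, 2, 4 or 5 or DOX replicate 2 or 4 was left out (0.0545 to 0.0667), and that of Irx3 without Control replicate 2 or 4 (0.0625 and 0.0665). DESeq2 called these 3 genes as well. With limma on log2(FPKM + 0.1), which also replaces TMM by library totals, the log2 fold changes of Irx3, Irx5 and Myl3 were 0.63, 0.85 and 0.18 (adjusted p = 0.142, 0.0778 and 0.172), and with limma and 1 added to FPKM they were 0.50, 0.47 and 0.18 (adjusted p = 0.131, 0.0677 and 0.174). With edgeR on library totals the log2 fold change of Myl3 was 0.16 (adjusted p = 0.229) and that of Irx3 0.84 (adjusted p = 0.0539). Irx4, Kcnip2 and Myl2 had values of 0.40, −0.33 and 0.26 and did not pass. In tumor-bearing mice Hey2 (0.55, edgeR adjusted p = 0.0467) and Myl3 (0.40, adjusted p = 0.0284) rose with doxorubicin. When each of the 21 libraries was left out in turn, Hey2 missed the threshold 16 times and Myl3 5 times, with edgeR adjusted p of up to 0.105 and 0.0817. With limma on log2(FPKM + 0.1) the adjusted p of Hey2 was 0.0779. Of the 12 pan-cardiomyocyte genes, led by Myh6, 5 rose and 1 fell in the first comparison and 4 rose in the second.

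The families to which the members belong were described in the same way, beside 36.2% of all genes called in DOX against Control and 4.72% in Tb-DOX against Tb. The family lists include the members themselves. The list of myosin light chains also holds Mylk3, the cardiac light chain kinase, and Ppp1r12b. Of its 13 genes tested, 4 rose (Myl3, Myl12a, Mylpf and Mylk3) and 3 fell (Myl1, Myl6 and Myl12b) in DOX against Control. Myl3 and Mylk3 rose in Tb-DOX against Tb. Of 6 genes for SERCA pumps and their small regulators, Pln alone passed in DOX against Control and 0 passed in Tb-DOX against Tb (edgeR). Pln averaged 1565 and Sln 5.56 over all libraries. Of 3 myosin binding protein genes tested, the fast skeletal isoform Mybpc2 fell in both states and the cardiac isoform Mybpc3 rose in tumor-bearing mice. Of 13 genes of the BMP9 and BMP10 pathway, the receptor genes Bmpr2 and Acvrl1 rose and fell, respectively, in DOX against Control, and 0 passed in Tb-DOX against Tb. Of 5 genes tested on the list of the Dickkopf family, the WNT coreceptors and Axin2, Kremen1 rose and Lrp6 fell in DOX against Control. None of these 5 passed in Tb-DOX against Tb. The medians of these 5 families ran from −0.10 to 0.29 on the log2 scale in the first comparison.

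Cells other than atrial muscle can express some members, and their markers were read beside them. Of all genes, 36.2% were called in DOX against Control, 4.72% in Tb-DOX against Tb and 17.5% in Tb-DOX against DOX. Of 5 skeletal muscle genes tested, in a tissue that also expresses Sln and Mylpf, 1 was called higher in DOX against Control (Mylpf), 0 were called in Tb-DOX against Tb and 2 were called lower in Tb-DOX against DOX (Mylpf and Tnnt3). Their median log2 fold changes were 1.44, −1.001 and −1.99 in these comparisons, beside 0.22, 0.26 and −0.94 for Sln. All 9 skeletal muscle genes listed summed to 1.68 to 9.26 in Control, 4.48 to 10.3 in DOX, 1.63 to 9.15 in Tb and 1.65 to 4.67 in Tb-DOX. None of the 9 was at 0 in all 21 libraries, while Tnnc2 was at 0 in all 5 Tb-DOX libraries. Of 6 fibroblast genes, led by Dcn, Pdgfra rose and Col1a1, Col1a2, Col3a1 and Lum fell in DOX against Control, and Col1a2, Col3a1 and Lum fell in Tb-DOX against Tb. Of 5 smooth muscle and 6 endothelial genes, led by Acta2 and Pecam1, 0 passed in either state. Their part in the levels of the members was not tested.

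The genes whose deviations from the group means were most like the mean of the 5 members, each scaled by its SD, were ranked among 13985 genes by Pearson's r over 21 libraries. Among the 10 highest were Kcnt2 (0.86), Gm42528, ENSMUSG00002075020, Pkd2, Mir186, Dip2c, Gm15706, Sbno1 and Usp32 (0.71). Of the 10, 8 were at their lowest level of all libraries in DOX replicate 5, ties included. Without this library the 10 highest were Sbk3 (0.90), ENSMUSG00002075020, ENSMUSG00000121145, Nppa (0.82), Gm15777, Gm13054, Gm33609, Sbk2 (0.75), Xrcc5 and Kcnt2 (0.69), and 2 of 10 were common to both lists. Sbk3 and Sbk2 encode related SH3-binding domain kinases. Sbk3 was at 3.24 in DOX replicate 5, inside the range of the other DOX libraries (1.36 to 3.46), as was Nppa. The likeness of Irx3 and Irx5 was −0.51 and −0.52 with all libraries and −0.07 and 0.03 without DOX replicate 5. Among the 10 other atrial genes tested, likeness with all libraries was 0.59 for Nppa, 0.50 for Stard10, 0.35 for Pam and 0.27 for Chrm2. It was 0.18 for Kcnj3, 0.17 for Nr2f2, −0.10 for Gja5, −0.12 for Tbx5 and Kcnj5 and −0.19 for Kcna5. Without DOX replicate 5 the values from Kcnj3 to Kcna5 in this order lay between −0.07 and 0.19.

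**Figure D5:**
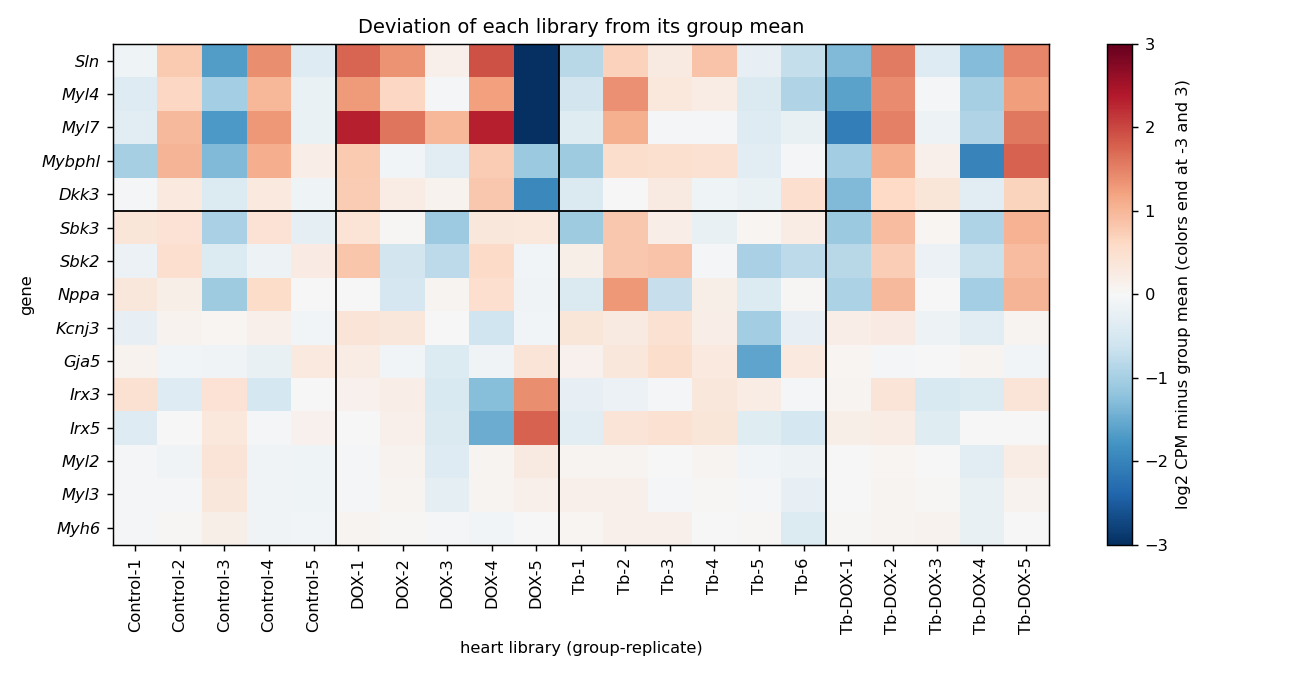
Deviation of log2 CPM from the group mean in each library for the 5 members tested (above the line) and for 10 other genes. Red is above and blue below the group mean, with colors ending at −3 and 3. Sln, Myl4 and Myl7 are lowest in DOX replicate 5, where Irx3 and Irx5, of the 8 ventricular genes those ranked highest in this library, are high, while the SDs of Myl2 and Myl3 within groups are 0.193 and 0.157.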

How the data were processed

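RNA was sequenced from 21 mouse heart libraries (Control 5, DOX 5, Tb 6, Tb-DOX 5) as paired reads of 150 bases. Per the labels, the submitters' processing notes name cutadapt, FastQC, HISAT2, HTSeq 0.6.1, DESeq2 1.34.0 and the build GRCm39. The annotation and the strand setting of the counting are not given in the sources used here, and the labels name oligo(dT) selection or rRNA depletion, while the methods name oligo(dT). The authors deposited whole-number counts per gene from HTSeq and FPKM values computed from them, which equalled counts per kb of exon and library total in 100% of values (tolerance 0.0051). Each library was taken as 1 replicate. The labels do not tie libraries to single mice, so p-values measure the spread between these libraries. Replicate counts differed by more than sampling noise (chi-square per degree of freedom 6.07 to 111).

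Genes were tested where their FPKM averaged 0.5 or more (13990 of 56691). Their counts were fitted in edgeR 4.0.16 (R 4.3.3) with quasi-likelihood tests, all 4 groups in 1 fit, with factors from TMM scaling of 0.881 to 1.14. Benjamini-Hochberg adjustment covered all genes tested, and a gene was called at an adjusted p under 0.05. Exact permutation tests used log2(FPKM + 0.1), and scipy 1.17.1 was used. Alternatives were DESeq2 1.42.0, limma 3.58.1, other scalings, filters and pseudocounts, a replicate block and leaving out each library. The fit was tested on simulated data. For the fold bound of Myl7 in DOX replicate 5, its count of 0 was given a floor of 3 counts, which covers counting error only, since no molecular identifiers are described. Elsewhere values of 0 were kept, with the pseudocount added on log scales.

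The genes named were the 6 members, each gene of the other atrial and ventricular lists that passed the filter, the most abundant gene of each other list and the 10 genes most like the members, of which 1 is not reported here. Genes named because they were called within the other lists, and the genes most like the members without DOX replicate 5, were chosen after their values were seen. The members and lists were chosen with earlier results of these data known. Protein sequences were not used here.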

Additional observations from a re-analysis of the deposited data

Results flagged for a closer look

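Of 56 sets of libraries (a gene or ratio in 1 group) examined for a library far from the rest of its group, 13 held one, where chance gives about 1 in 20 for independent sets. These sets were not independent: 6 of the 13 came from DOX replicate 5 in measures that vary together, and the ratios share genes with the single-gene sets. The measure was the gap to the nearest library as a share of the range of the group, on log2(FPKM + 0.1), with a critical value of 0.71 for 5 libraries and 0.625 for 6. DOX replicate 5 was far below the other DOX libraries in Sln (0.760), Myl4 (0.717), Myl7 (0.878) and Dkk3 (0.784), and in the ratios of Myl7 to Myl2 (0.899) and of Myl4 to Myl3 (0.745). Tb replicate 2 was high in Myl7 (0.656) and in the ratio of Myl7 to Myl2 (0.713). Bmp10 was high in Tb replicate 4 (0.797) and in Tb-DOX replicate 3 (0.896), from 5 and 9 counts. Tb replicate 5 was low in Kcnj3 (0.643) and Gja5 (0.787), and DOX replicate 4 in Kcna5 (0.878).

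The effect of doxorubicin on Kcna5 differed between mice with and without a tumor, by a log2 difference of 0.91 (SE 0.222, edgeR adjusted p = 0.0202), the 1 of 10 other atrial genes that passed, where 8.94% of all genes did. Kcna5 was at 5.26 FPKM in DOX against 9.52 in Control, and at 8.74 in Tb-DOX against 7.65 in Tb.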

How the results depend on the processing

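Depth limited Bmp10, which held at most 14 counts in a library, and the SD of the 5 members tested within groups (0.718 to 2.23 on log2 CPM) limited their comparisons. No member was called in any of the 5 comparisons, except that leaving out 1 library at a time gave 0 to 1 called members in DOX against Control and in Tb-DOX against DOX, the 1 being Dkk3 without DOX replicate 5, where 5125 and 2657 of 13990 genes were called. Without Control replicate 3 or Tb replicate 5, 0 members were called in each comparison. The alternatives for Nppa and the other atrial and ventricular genes, and the correlations, SDs and likeness without DOX replicate 5, were chosen after seeing the data. A mean FPKM of at least 5 left out Mybphl.

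In DOX against Control the log2 fold change of Myl7 turned to −0.035 with library totals, −0.65 with limma and 1 added to FPKM, −1.29 with limma and 0.1 added, and −1.55 over the summed pan-cardiomyocyte genes. That of Sln turned to −0.14, −0.57 and −0.83 under the last 3, and Dkk3 and Mybphl both to −0.064 over the pan-cardiomyocyte sum. In Tb-DOX against Tb, Sln turned to −0.028 and −0.11 with limma and to −0.42 over that sum, and Myl4 to −0.26 over the sum. In Tb-DOX against DOX, Myl7 turned to 0.29 and 0.90 with limma and to 0.92 over the sum, and Mybphl to 0.0021 with library totals. The cause was not tested.

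Leaving out 1 library at a time, the log2 fold change in DOX against Control ran from −0.18 to 0.47 for Myl7, from −0.060 to 0.67 for Sln and from −0.028 to 0.49 for Mybphl. In Tb-DOX against Tb it ran from −0.20 to 0.18 for Dkk3, from −0.17 to 0.51 for Sln and from −0.12 to 0.69 for Myl4. It ran from −0.40 to 0.32 for the interaction of Sln, from −0.089 to 0.10 for Dkk3 in Tb against Control and from −0.75 to 0.12 for Mybphl in Tb-DOX against DOX. The log2 ratio of Myl7 to Myl2 ran from −2.01 to 0.47 in DOX against Control and from −0.33 to 0.56 in Tb-DOX against Tb, and that of Myl4 to Myl3 from −0.69 to 0.025 in Tb-DOX against Tb. The correlation of Myl7 with Myl2, Myl3 and Tnnt2 turned positive without DOX replicate 5 (0.10, 0.10 and 0.021).

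The labels share replicate numbers between groups, but residuals of same-numbered libraries correlated at −0.219 to 0.194 over 30 pairs, so the libraries were not taken as paired. With the replicate block, Dkk3 turned to 0.082 in Tb-DOX against Tb and to −0.092 in Tb against Control, the interaction of Sln turned to −0.19, and no member was called. The block moved the number of genes called from 1251 to 506 for the interaction and from 879 to 469 in Tb against Control. It also took the adjusted p to 0.0520 for Gja5 and 0.0512 for Irx3 in DOX against Control and to 0.0705 for Myl3 in Tb-DOX against Tb, with log2 fold changes of −0.75, 0.84 and 0.35. With only the 2 groups compared in the fit, the edgeR adjusted p was 0.0690 for Nppa and 0.126 for Hey2 in Tb-DOX against Tb, and 0.0732 for Myl3 and 0.0574 for Irx3 in DOX against Control, with log2 fold changes of 1.65, 0.55, 0.31 and 0.99. With no filter beyond 1 count it was 0.0562 for Myl3 in DOX against Control, and 0.0572 for Myl3 and 0.0980 for Hey2 in Tb-DOX against Tb. Hey2 also missed the threshold there with library totals, and was at 0.0728 with limma and 1 added to FPKM. DESeq2 called 2036 genes for the interaction and 1074, against 660, in Tb-DOX against Tb.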

Other observations

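Sbk3, a kinase gene named after its values were seen, was the gene most like the members without DOX replicate 5 (r = 0.90) and rank 189 with it. Its log2 fold change was 0.77 in DOX against Control (edgeR adjusted p = 0.134) and 1.29 in Tb-DOX against Tb (SE 0.388, adjusted p = 0.0577). For the related gene Sbk2 the values were −0.97 (adjusted p = 0.0643) and −0.02 (adjusted p = 0.982).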
